A study of Mus musculus with 2 samples.

Results

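Among 1483 cells of a mouse islet preparation profiled with RevGel-seq, 86 were leukocytes by their transcripts. A cell was counted as a leukocyte when insulin (Ins1 and Ins2 summed), glucagon (Gcg), somatostatin (Sst) and pancreatic polypeptide (Ppy) each made up less than 1% of its transcripts, when the summed transcripts of 9 leukocyte genes (Ptprc, Lcp1, Cd52, Cd79b, Ms4a1, Cd3e, Lyz2, C1qb and Csf1r) reached at least 5, and when that sum exceeded the sum of 6 endothelial genes (Pecam1, Plvap, Flt1, Kdr, Cdh5 and Esm1). Library 1 held 44 of them among 735 cells and library 2 held 42 among 748. Because measured transcripts chose the cells, every level given for these genes, and every contrast between the leukocytes and the other cells, is a description and was not tested.

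RevGel-seq pairs cells with barcoded beads inside a reversible hydrogel, where lysis lets a bead tag the RNA of its partner. The labels give 1 group, control pancreas islets of C57BL/6J mice at 8 weeks of age, and 2 libraries of 10000 input cells each. According to the methods the mice were male, the islets were freed with collagenase injected through the bile duct, picked by hand and dissociated with trypsin, and both libraries are technical replicates of 1 preparation. The spread between the libraries therefore holds no difference between animals, and blood cells, cells resident in the islet and cells carried along from other parts of the pancreas cannot be told apart.

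Leukocytes are the white blood cells, and all of them share the surface phosphatase CD45, encoded by Ptprc. B cells carry immunoglobulin as their antigen receptor and turn into plasma cells that secrete it, T cells recognise peptides held by MHC molecules, and macrophages and dendritic cells take up proteins and show their fragments to T cells on MHC class II. Islets of healthy mice are known to contain resident macrophages that sit close to beta cells and blood vessels.

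The MHC class II genes were among those with the highest ratios of leukocytes to other cells and are known for a shared promoter structure, so their promoters are shown first. They are known to be switched on together through conserved boxes upstream of the start, bound by RFX, CREB and NF-Y factors and by the coactivator CIITA, and the Y box of this set holds an inverted CCAAT sequence. RefSeq promoter sequences on GRCm38.p6 were found for 7 of the 10 class II genes listed, with 8 promoters of 300 bases in all. H2-Ab1, Cd74 and Ciita had no entry. The letters GATTGG or their reverse complement CCAATC, searched on both strands, occurred in 7 of the 8 promoters, against 5292 of 32851 promoters of the same length (16.1%). On the coding strand and 41 to 100 bases before the start, GATTGG occurred in 6 of the 8 (75.0%) against 1084 of all (3.3%). Of 10 promoters of the MHC class I list 8 held the letters somewhere, but 1 within that stretch. In B cell, T cell and macrophage marker genes they occurred in 0 of 7, 0 of 7 and 1 of 9 promoters. The 6 windows of 125 bases are printed 5′ to 3′ on the coding strand, with both motif forms in capitals. They lie at chr17:34287849-34287973 on the minus strand for H2-Aa, and on the plus strand at chr17:34305717-34305841 for H2-Eb1, chr17:34153041-34153165 for H2-DMb1, chr17:34145099-34145223 for H2-DMb2, chr17:34092229-34092353 for H2-Oa and chr17:34238755-34238879 for H2-Ob.
H2-Aa: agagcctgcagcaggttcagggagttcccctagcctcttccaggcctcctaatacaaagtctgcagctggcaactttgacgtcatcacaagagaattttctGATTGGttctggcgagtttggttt
H2-Eb1: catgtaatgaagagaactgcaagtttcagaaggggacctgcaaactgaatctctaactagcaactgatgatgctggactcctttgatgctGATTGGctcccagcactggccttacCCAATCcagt
H2-DMb1: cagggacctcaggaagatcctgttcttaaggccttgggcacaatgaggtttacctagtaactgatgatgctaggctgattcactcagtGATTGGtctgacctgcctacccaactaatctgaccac
H2-DMb2: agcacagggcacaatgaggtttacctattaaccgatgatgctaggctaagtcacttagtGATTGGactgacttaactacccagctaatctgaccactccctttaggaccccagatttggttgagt
H2-Oa: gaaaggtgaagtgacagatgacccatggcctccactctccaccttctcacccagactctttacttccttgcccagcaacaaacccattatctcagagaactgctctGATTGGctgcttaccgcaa
H2-Ob: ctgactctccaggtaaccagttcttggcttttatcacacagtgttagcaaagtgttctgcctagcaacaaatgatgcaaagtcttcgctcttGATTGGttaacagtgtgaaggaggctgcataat
GATTGG starts 49 bases before the gene start in H2-Aa, 60 in H2-Eb1, 62 in H2-DMb1, 91 in H2-DMb2, 44 in H2-Oa and 58 in H2-Ob. A match is a run of letters in a window and does not show that a factor was bound there.

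Leukocytes made up 5.99% of cells in library 1 (exact Clopper-Pearson 95% interval 4.38 to 7.95) and 5.61% in library 2 (4.08 to 7.51), with a mean of 5.80% ± 0.263 (SD, n = 2). Such intervals cover counting error only. The libraries held 15931154 and 17440292 transcripts, counted as unique molecular identifiers (UMIs), of which the leukocytes held 693380 and 741052. A leukocyte had a median of 11003.5 UMIs in library 1 and 11634 in library 2, between 7269 and 67085, and the other cells had medians of 17841 and 19276. No cell barcode occurred in both libraries.

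The genes of the rule were spread unevenly over the members, which is a description, since their sum chose the cells. A Ptprc UMI was found in 81 of the 86 leukocytes and in 46 of 1397 other cells (3.29%). Lcp1, an actin-bundling protein of blood cells, was found in 84 and 93, and Cd52, a small surface glycoprotein of lymphocytes, in 81 and 27. Between 20 and 37 leukocytes held the genes of a single lineage (Cd79b, Ms4a1, Cd3e, Lyz2, C1qb and Csf1r), as did 3 to 31 of the other cells. In 67 leukocytes at least 9 markers of 1 cell type list were detected, and these lists share genes with the rule.

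Exactly 4 of the 86 cells went against the label. They had no Ptprc UMI, too few markers for any class, and leukocyte sums of 5, 6, 6 and 9, at the low end of all members. Both in library 1 held the epithelial genes Dmbt1 (244 and 394 UMIs), Pigr (192 and 454), Epcam (58 and 146) and the duct keratin Krt19 (69 and 183). One in library 2 held 8450 UMIs of the mucosal peptide Tff2, with 87 of Epcam and 47 of the duct regulator Sox9, and the other held 264 of Spp1, 42 of Sox9 and 9 of Csf1r. Their depth was 30967, 67085, 53243 and 47328 UMIs, together 13.8% of all leukocyte UMIs. Without them 82 cells remained, 5.71% of library 1 and 5.35% of library 2. The choice to set them apart was made after these values were seen. Values without them are given for some results, and the other values over all leukocytes include them.

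The edges of the rule are drawn in the plot of leukocyte against endothelial sums. After the 4 cells above and 1 more with a sum of 9, the next members had sums of 13 and 18, while the nearest cells below the minimum had 4, 4, 3, 3 and 3. In all, 40 cells below the hormone limit had 1 to 4 UMIs of the leukocyte genes and 48 had none. Another 9 cells reached the minimum but had as many or more endothelial UMIs, and 1 of them held 11 B cell and 11 T cell markers with a leukocyte sum of 64 against 225. A hormone at or above the limit kept out 12 cells that met the other conditions, 10 of them with at least 9 markers of 1 leukocyte list. One with 11 T cell markers was 39.6% insulin, 2 with 10 and 11 B cell markers were 38.1% and 38.5% Ppy, and 2 with 9 and 11 macrophage markers were 30.4% and 25.4% Ppy.

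**Figure D1:**
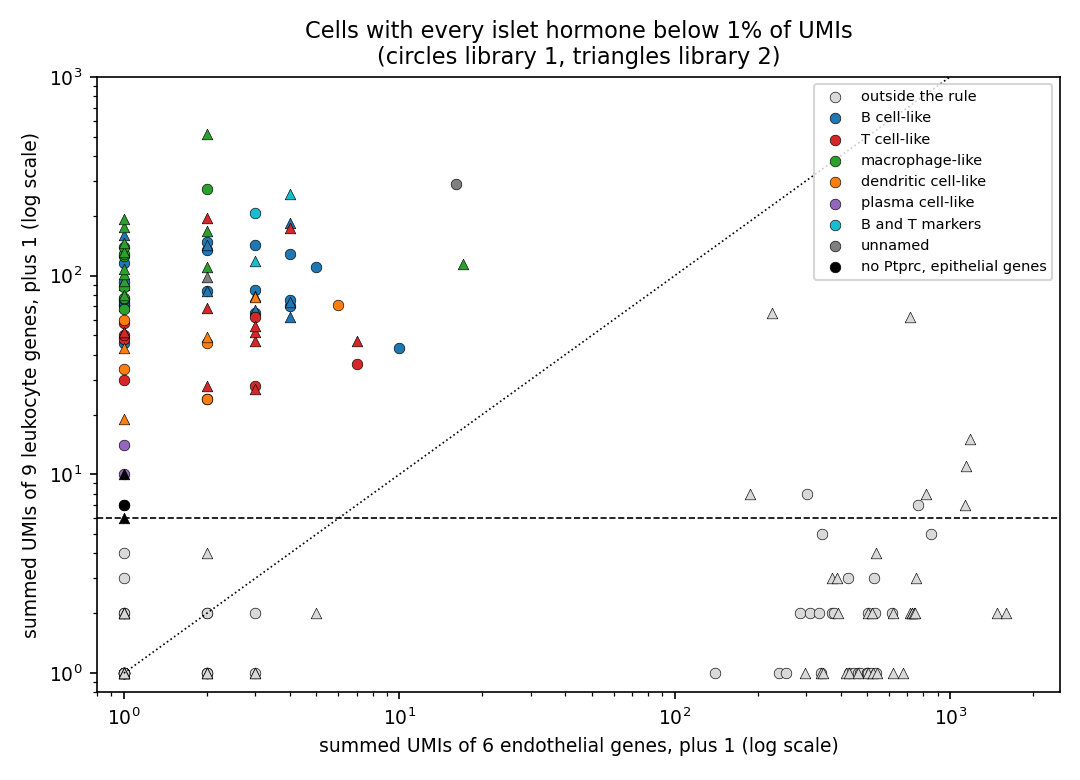
Summed UMIs of the 9 leukocyte genes (vertical axis, plus 1, log scale) against those of the 6 endothelial genes (horizontal axis, plus 1, log scale) for the 183 cells with every hormone below 1% of UMIs; circles are library 1 and triangles library 2. The dashed line marks the minimum of 5 and the dotted line equal sums. The 4 epithelial-marked cells (black), all without a Ptprc UMI, lie at or just above the minimum, and the other leukocytes reach sums of 9 to 512.

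Hormone transcripts were low in the leukocytes by the rule, and their medians lay near those of the other cells below the limit. Insulin made up a median of 0.191% of leukocyte UMIs in library 1 and 0.176% in library 2, against 0.190% and 0.153%. For Ppy the medians were 0.0818% and 0.0639% against 0.0614% and 0.0608%. Ins2 stood at between 1410 and 2103 counts per 1000000 UMIs (CPM) in every main leukocyte class and library.

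The leukocytes were sorted into classes by the number of detected markers, with lists of 12 genes per cell type and 8 for plasma cells. A class needed at least 3 markers and more than any other list, and its name means that these markers were found. B cell-like cells numbered 18 in library 1 and 10 in library 2, which is 40.9% (26.3 to 56.8) and 23.8% (12.1 to 39.5) of the leukocytes. T cell-like cells numbered 8 and 11, or 18.2% (8.19 to 32.7) and 26.2% (13.9 to 42.0). Macrophage-like cells numbered 7 and 12, or 15.9% (6.64 to 30.1) and 28.6% (15.7 to 44.6). Within each library the intervals of these 3 classes overlapped, and an order among them was not tested. Dendritic cell-like cells numbered 5 and 4, or 11.4% (3.79 to 24.6) and 9.52% (2.66 to 22.6).

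The remaining cells were few. Plasma cell-like cells numbered 2 in library 1, or 4.55% (0.555 to 15.5), and 0 in library 2, which allows a share of up to 7.14% when the limit is set at 3 counts of the total (exact upper bound 8.41%). In 3 cells B and T cell markers were found together, and 6 cells stayed unnamed, the 4 epithelial-marked cells among them. No cell was called NK or innate lymphoid, neutrophil or mast cell-like, which by the same limit of 3 counts allows up to 6.82% of leukocytes in library 1 and 7.14% in library 2 (exact upper bounds 8.04% and 8.41%). Of the 12 genes in each of these lists only 10, 9 and 5 were listed in the counts, so these calls rested on fewer markers. S100a8, the main cytosolic protein of neutrophils, had no UMI in any of the 1483 cells. The B cell-like cells held 8 to 12 of their 12 markers and the T cell-like and macrophage-like cells 10 to 12, while the dendritic cell-like cells held 3 to 8, with 2 of 9 at 3 or 4. Median depth was alike, from 9306.5 UMIs in T cell-like cells of library 1 to 12343.5 in macrophage-like cells of library 2.

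**Figure D2:**
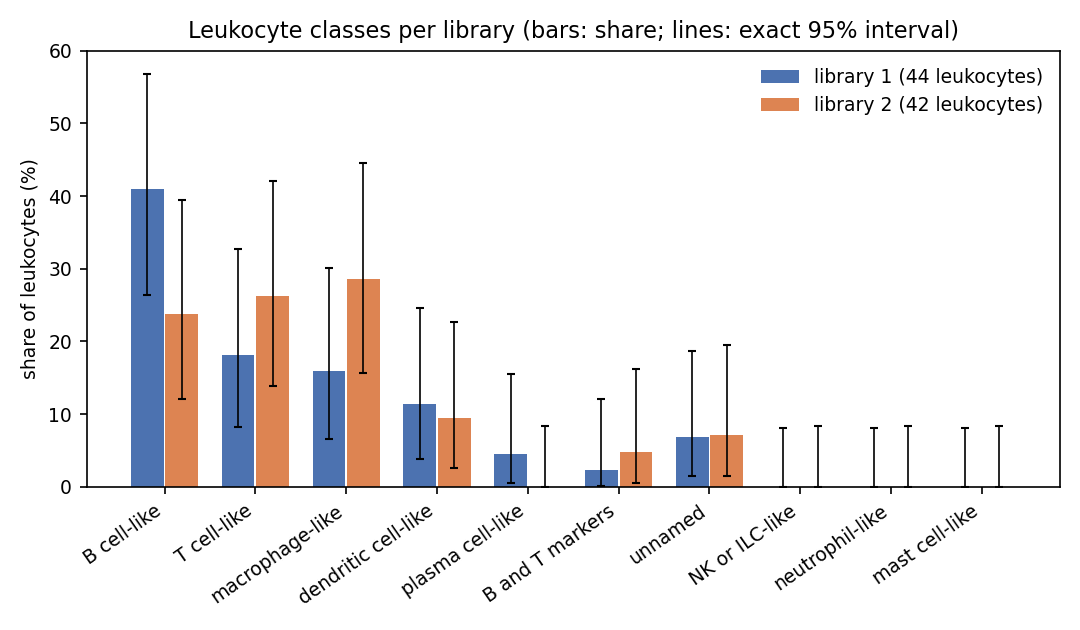
Share of the leukocytes in each class (vertical axis, percent) by library, with exact 95% Clopper-Pearson intervals as lines. B cell-like cells were 40.9% in library 1 and 23.8% in library 2, and the intervals of the libraries overlap in every class.

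Of 16235 genes with at least 50 UMIs over all cells, 671 (4.13%) were higher in leukocytes than in all other cells by 4-fold or more in each library, and 405 (2.49%) were lower. The ratio was taken between CPM of the summed UMIs with 10 CPM added to both, and a gene under 30 CPM in the other cells could not reach the limit for lower. Without the 4 epithelial-marked cells the counts were 743 (4.58%) and 568 (3.5%). After TMM scaling, which moved the median of all genes to -0.29 on the log2 scale from 0.02, they were 446 and 624. The higher and lower counts thus changed order with the scaling, while the genes named next stood far from the limit.

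Outside the gene lists, genes of general leukocyte function were among the highest, while immunoglobulin and class II genes reached still higher ratios. Ptprc, a gene of the rule and so not outside the lists, stood at 1279 and 1304 CPM in the leukocytes of libraries 1 and 2. In the other cells it stood at 5.58 and 4.55, a log2 ratio of 6.43 ± 0.09 (SD, n = 2). It lies at chr1:138062861-138175708 on the minus strand of GRCm38, and only its exons were counted. Laptm5, a lysosomal membrane protein that limits antigen receptor signalling, stood at 1033 and 1366 CPM against 4.07 and 9.40, a log2 ratio of 6.18 ± 0.04. It was present in each of the 28 B cell-like, 19 T cell-like, 19 macrophage-like and 9 dendritic cell-like cells. Cybb, the catalytic subunit of the phagocyte NADPH oxidase, reached a log2 ratio of 6.04 ± 0.20 but was uneven. It stood at 2870 and 2785 CPM in macrophage-like and 1166 and 1537 in B cell-like cells, against 109 and 0 in T cell-like cells.

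Others of this group divided between lymphoid and myeloid cells. Arhgdib stood at 568 and 640 CPM in B cell-like and 449.9 and 634 in T cell-like cells, against 253 and 136 in macrophage-like cells. Cd69, an early activation antigen, was found in 25 of 28 B cell-like and 16 of 19 T cell-like cells and in 6 of 19 macrophage-like cells. Mpeg1, a pore-forming protein of phagocytes, ran the other way, with 2593 and 2428 CPM in macrophage-like cells and at most 10.5 in T cell-like cells. Rgs1, a brake on chemokine receptor signalling, stood at 2231 and 996 CPM in macrophage-like cells and no higher than 224 in either lymphocyte class. The levels of 30 genes by class are shown in the map of log2 levels.

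**Figure D3:**
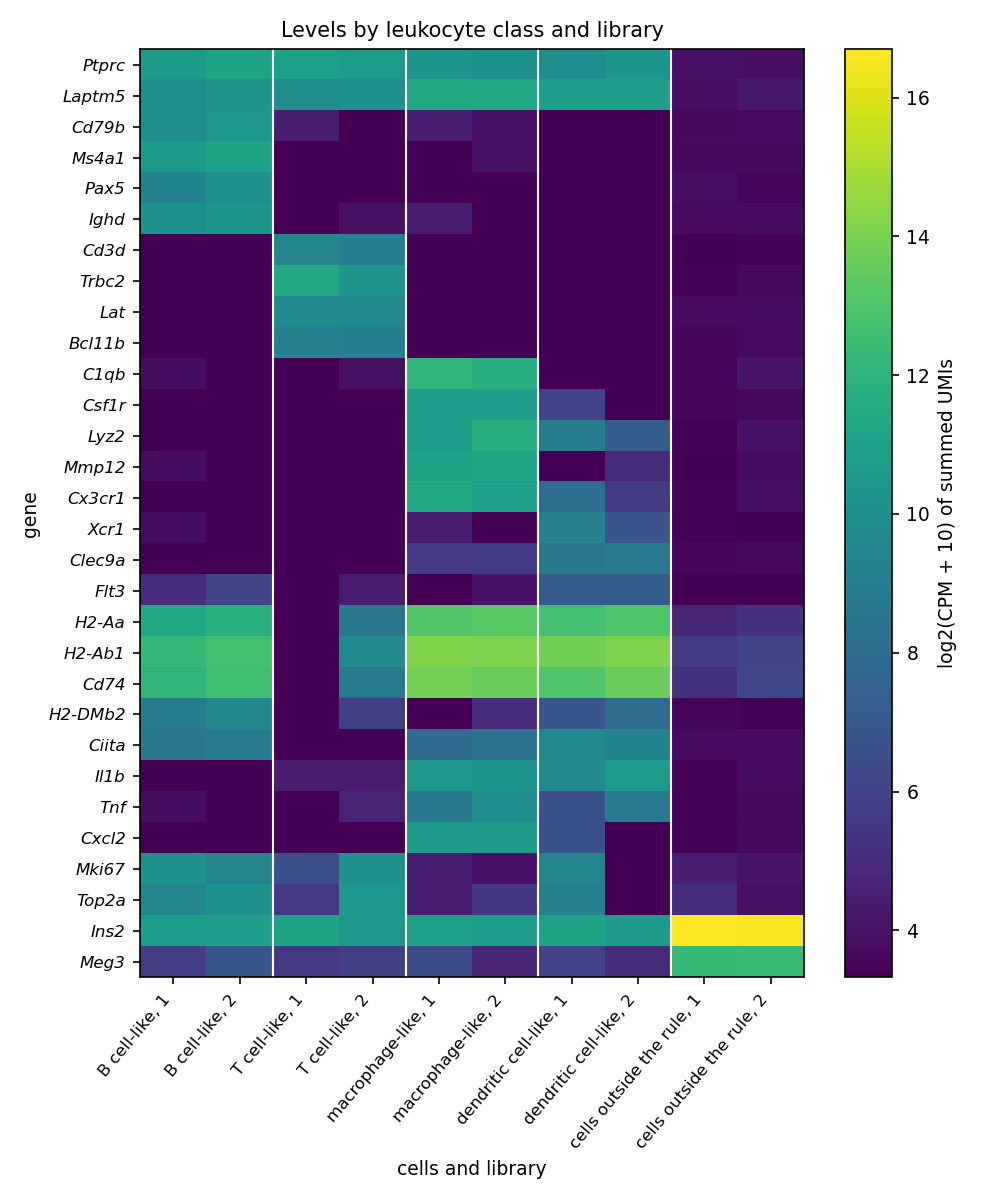
Level of 30 genes (rows) in the 4 main leukocyte classes and in the cells outside the rule (columns, libraries 1 and 2), as log2 of CPM of the summed UMIs plus 10. Ptprc and Laptm5 are high in all 4 classes, class II genes in all but the T cell-like cells, and Ins2 and Meg3 in the cells outside the rule.

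Genes of MHC class II presentation were high in most B cell-like cells and in all macrophage-like and dendritic cell-like cells, and low in most T cell-like cells and most cells outside the rule. Of 10 MHC class II genes, 9 were higher in leukocytes, and all 10 without the epithelial-marked cells, against 4.13% and 4.58% of all genes compared. The median log2 ratio of the list was 4.29, against 0.02 over all genes compared. H2-Ab1, a chain of the class II molecule (chr17:34257689-34269419), stood at 5557 and 7075 CPM in the leukocytes and at 41.9 and 58.9 in the other cells, a log2 ratio of 6.71 ± 0.04. Cd74, the invariant chain that guides class II molecules to the endosome, stood at 4602 and 5449 CPM against 28.9 and 60.9, a log2 ratio of 6.58 ± 0.44. Ciita, the coactivator of these genes, stood at 274 and 220.0 against 3.35 and 2.99.

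The summed class II level set the T cell-like cells apart from the myeloid classes. It was 56430 and 53896 CPM in macrophage-like cells and 39574 and 51975 in dendritic cell-like cells, with the lowest of these 28 cells at 21972. In B cell-like cells it was 16308 and 23137 CPM, between 1641 and 31626 in single cells. T cell-like cells stood at 255 and 2307, with median cells at 228 and 109 and the highest cell at 4063, below every macrophage-like and dendritic cell-like cell. The B cell-like range overlapped both sides. The T cell-like sum of library 2 came from few cells, since 3 of 11 held any H2-Aa UMI. Among the cells outside the rule the median was 0, with 54029 CPM in the highest cell.

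Some class II helpers were higher in B cell-like than in macrophage-like cells. H2-DMb2, a chain of the DM complex that loads peptides, was found in 27 of 28 B cell-like cells at 504 and 739.7 CPM and in 4 of 19 macrophage-like cells at 0 and 22.6. The neighbouring H2-DMb1 stood at 374 and 549 CPM in macrophage-like and 229 and 283 in B cell-like cells. These genes are near-identical copies, and reads could be split between them in counting. H2-Oa and H2-Ob encode the DO complex, which restrains DM in B cells. H2-Ob stood at 523 and 731 CPM in B cell-like against 84.4 and 45.3 in macrophage-like cells, and H2-Oa at 56.4 and 166 against 12.1 and 5.66.

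MHC class I, which shows peptides from inside the cell, was higher in leukocytes for 8 of 11 genes, against 4.13% of all genes compared. The median log2 ratio of the list was 2.83. The summed list stood at 7182 and 8380 CPM in the leukocytes and at 1139 and 1308 in the other cells. It varied less than class II over the 4 main classes, from 6695 CPM in macrophage-like cells of library 2 to 11479 in T cell-like cells of library 1. B2m, the light chain of class I, had a log2 ratio of 3.35 ± 0.28, which was -0.02 when only other cells with every hormone below 1% served as the reference. H2-Q7, a nonclassical class I gene, was at 1046 and 928 CPM in T cell-like cells and at 121 and 28.3 in macrophage-like cells.

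B cell-like cells were the largest class in library 1. All 12 genes of the B list were higher in leukocytes than in other cells, against 4.13% of all genes compared. Cd79b and Ms4a1 of this list were also in the rule that chose the leukocytes, which fixes this count in part. Ms4a1, which encodes CD20 (chr19:11249675-11266241), stood at 1527 and 2053 CPM in B cell-like cells and was found in 28 of 28, against 1 of 19 macrophage-like cells and no T cell-like cell. Cd79b, a signalling chain of the B cell receptor, stood at 967 and 1371 CPM, and Pax5, the factor that fixes B cell identity, at 655 and 1064. Against the other leukocytes 73 genes (0.45%) were higher in B cell-like cells in each library. Outside the lists these were led by Fcrla, Scd1, Chst3, B3gnt5, Siglecg and Cd37. Siglecg, an inhibitory receptor that dampens B cell receptor signals, stood at 346 and 291 CPM and Cd37, a B cell tetraspanin, at 655 and 856.

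The B cell-like cells divided by their immunoglobulin genes. Ighm, the heavy chain of IgM, was found in 23 of 28 and Ighd, that of IgD, in 19 of 28, and every cell with Ighd also held Ighm. Kappa light chain UMIs outnumbered lambda in 26 of 28 cells. The 19 cells with Ighd had a median of 9992 UMIs. Of these, 17 held Fcer2a (the low-affinity IgE receptor of resting B cells) and 11 held Ccr7, a receptor for lymph node chemokines. At least 5 of 10 proliferation genes were detected in 1 of them.

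The 9 cells without Ighd looked different in most of these counts. At least 2 UMIs of a switched heavy chain (IgG or IgA) were found in 8 of the 9 and in 1 of the 19 with Ighd, and Jchain, which joins immunoglobulin units for secretion, in 6 and 1. Fcer2a was found in 1 of the 9, while Ighm was still found in 4 and Ccr7 in 4. S1pr2, a receptor of germinal centre B cells, was found in 5 of the 9 and in 1 of the 19. Bcl6, a regulator of germinal centre B cells, went the other way, with 2 of the 9 and 6 of the 19. The proliferation count was reached in 6 of the 9, so that 6 of the 7 proliferating B cell-like cells lacked Ighd against 3 of the other 21. The 9 cells were deeper, with a median of 15926 UMIs, and the part of depth in these counts was not tested. These genes, and the division by Ighd, were chosen after the values were seen.

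**Figure D4:**
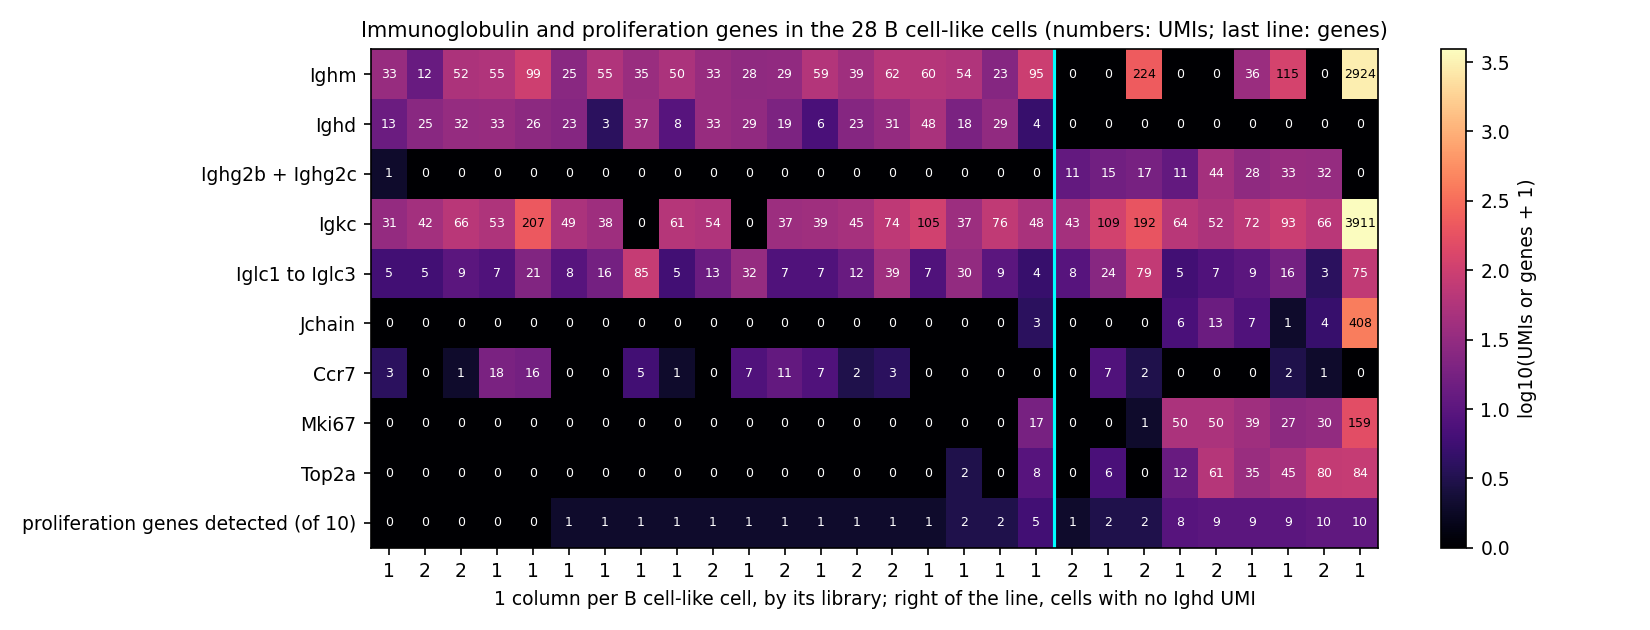
UMIs of immunoglobulin, homing and proliferation genes in the 28 B cell-like cells (columns, with the library of each cell below) on a colour scale of log10 of UMIs plus 1; the last line counts detected proliferation genes. Right of the line lie the 9 cells without Ighd, of which 8 hold Ighg2b or Ighg2c UMIs and 6 at least 5 of the 10 proliferation genes.

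One B cell-like cell of library 1 shaped the sums. It held 56678 UMIs, with 2924 of Ighm, 3911 of Igkc and 408 of Jchain, 7 of 8 plasma cell markers and all 10 proliferation genes. It supplied 65.3% of the Ighm UMIs of all leukocytes. The Ighm level of the class was 14092 CPM in library 1 and 3748 in library 2, and this cell lay in library 1.

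Both plasma cell-like cells came from library 1, and immunoglobulin genes held a large share of their transcripts. Ighg2b, the heavy chain of IgG2b, made up 8811 of 20919 UMIs (42.1%) in one and 3534 of 14434 (24.5%) in the other. Immunoglobulin transcripts together were 68.6% and 48.5% of their UMIs. Both held Jchain (452 and 291 UMIs), Xbp1, the regulator of secretory expansion (27 and 29), and the protease inhibitor Slpi (289 and 33), and neither held Ighm. They carried 98.9% of the Ighg2b and 58.6% of the Igkc UMIs of all leukocytes. Both were called doublets by Scrublet, which called no other leukocyte and 16 of the 1483 cells (1.08%).

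T cell-like cells were defined by the CD3 complex and its signalling partners. Trbc2, a constant region of the T cell receptor beta chain, stood at 2712 and 1248 CPM and was found in 19 of 19 T cell-like cells and in no cell of the other 3 main classes. Cd3d stood at 669 and 509 CPM, and Lat, the adaptor that relays the receptor signal, at 839 and 776. Of the T list 9 of 12 genes were higher in leukocytes than in other cells, against 4.13% of all genes compared. The rule that chose the leukocytes also held Cd3e of this list, which fixes this count in part. In T cell-like cells 59 genes (0.363%) were higher than in other leukocytes. Outside the lists these were led by Trbc1, Cd8b1, Ctsw, Cd8a, Dapl1 and Cd96. Lef1 or Tcf7, regulators of naive and memory T cells, was found in 19 of 19. Itgb7, an integrin chain for homing to the gut, stood at 729.6 and 1106 CPM, and Il7r, the receptor for the survival cytokine IL-7, at 401 and 304.

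Cytotoxic and helper lineages were both present. Cd8a or Cd8b1 without Cd4 was found in 9 T cell-like cells, Cd4 without either in 7, both in 1 and neither in 2. Foxp3, the regulator of regulatory T cells, was found in 4 with 11, 4, 4 and 1 UMIs. In library 1 there were 2 cells with CD8 genes alone and in library 2 there were 7, and Cd8a stood at 146 and 661 CPM in the class. Both deepest T cell-like cells, of 49310 and 50950 UMIs, lay in library 2. They held 106 and 91 UMIs of Gzma, 34 and 47 of Gzmb, 39 and 43 of Cd8a and all 10 proliferation genes. The T cell-like cells of library 2 held 190751 UMIs in all, so these 2 cells weigh heavily in every CPM of the class there. Gzma and Gzmb encode granzymes, the proteases that cytotoxic cells inject into their targets, and no other leukocyte held either.

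Macrophage-like cells had 244 genes (1.5%) that were higher than in the other leukocytes in each library, more than any other class. C1qb, a chain of complement C1q (chr4:136880129-136886187), stood at 4281 and 3435 CPM and was found in 19 of 19. Csf1r, the receptor for the growth factor that macrophages depend on, stood at 1652 and 1590, and Cx3cr1, the fractalkine receptor, at 2533 and 1862. Apoe, a lipid carrier, stood at 21781 and 32401 CPM, against at most 648 in the other 3 main classes. Lyz2 stood at 1700.5 and 3215, with 35.9% of its leukocyte UMIs in 1 cell.

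Outside the lists Mmp12, Tanc2, Stab1, Itgb5 and Tgfbi were among the leading genes. Mmp12, macrophage elastase (chr9:7344381-7369499), stood at 2086 and 2354 CPM but was uneven, with UMIs in 6 of 7 and 8 of 12 cells and counts from 0 to 144 UMIs. Siglech, better known from plasmacytoid dendritic cells and microglia, was found in 11 of 19 at 193 and 543 CPM, and Itgax, which encodes CD11c, in 18 of 19.

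Lysosomal, complement and cytokine genes were concentrated in this class. Of the lysosome and phagocytosis list 11 of 20 genes compared were higher in macrophage-like cells than in other leukocytes, as were 6 of 13 of the complement list and 8 of 15 of the cytokine list, against 1.5% of all genes compared, and none of these in T cell-like cells. The complement list shares C1qa, C1qb and C1qc with the markers that named this class, which fixes its count in part. The lysosome list summed to 41572 and 50325 CPM in macrophage-like cells and to between 624 and 3574 in the other 3 main classes. Ctss, a protease that prepares class II molecules, stood at 7707 and 6939 CPM there and at 624 and 831 in B cell-like cells.

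The cytokine list summed to 7707 and 8710 CPM in macrophage-like and 2469 and 3057 in dendritic cell-like cells, against 169 and 125 in B cell-like cells. Il1b, an inflammatory cytokine that acts on beta cells, stood at 1387 and 1341 CPM in macrophage-like and 878 and 1673 in dendritic cell-like cells. Its receptor gene Il1r1 ran the other way, with 1.44 and 4.05 CPM in leukocytes and 161 and 140.4 in the other cells, a log2 ratio of -3.66 ± 0.34. Tnf was found in 17 of 19 macrophage-like cells at 410.0 and 917 CPM, and the neutrophil attractant Cxcl2 in 12 at 1519.6 and 1494. Pdgfb, a growth factor for vessel-supporting cells, was found in 19 of 19 at 349.7 and 328 CPM. No leukocyte held a UMI of Il6 or Csf2, and Ifng was found in 4.

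**Figure D5:**
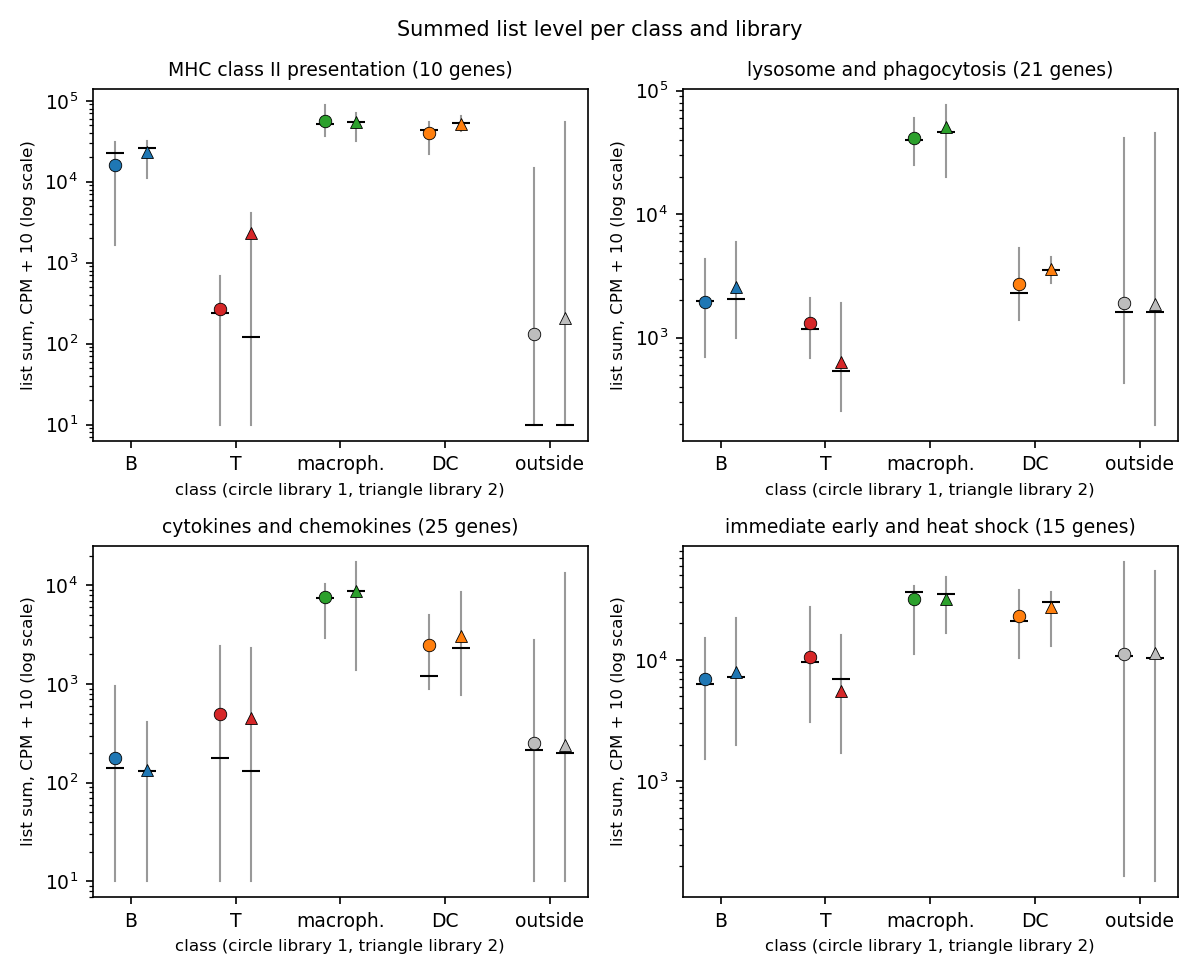
Summed level of 4 gene lists (vertical axes, CPM plus 10, log scale) by class and library; points are class sums, black ticks the median cell and grey lines the range from lowest to highest cell. Class II genes are high in B, macrophage (macroph.) and dendritic (DC) cell-like cells, and lysosome genes in macrophage-like cells at 41572 and 50325 CPM.

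Stress genes were also highest in the myeloid classes. The list of 15 immediate early and heat shock genes, known to be induced by enzymatic dissociation, summed to 32056 and 31897 CPM in macrophage-like and 23078 and 27454 in dendritic cell-like cells. It stood at 6975 and 8003 in B cell-like, at 10591 and 5515 in T cell-like and at 11169 and 11378 in the cells outside the rule. Over all leukocytes none of the 15 was higher or lower, and the ratios of Fos (0.10 ± 0.48) and Jun (0.04 ± 0.59) turned to -0.56 and -0.61 after TMM scaling. The part of these genes in the cytokine levels of macrophage-like and dendritic cell-like cells was not tested.

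Dendritic cell-like cells were few, and their features came from single cells. Itgax was found in 9 of 9, Flt3, the receptor for their growth factor, and Zbtb46, a factor of conventional dendritic cells, in 7 each. Clec9a, a receptor for dead cells, was found in 7 and Xcr1, a chemokine receptor, in 6. Both mark the subset that presents antigen to CD8 T cells. Itgax, Flt3, Zbtb46, Clec9a, Xcr1, Ccl22 and Fscn1 are on the list that named the class, which fixes their presence in part. Outside the class, Clec9a was found in 5 macrophage-like cells and Flt3 in 8 B cell-like cells. Clec9a stood at 402 and 454 CPM and Xcr1 at 549 and 103, with 35.1% of the leukocyte UMIs of Xcr1 and 35.2% of those of Clec9a in 1 cell each. One cell of library 2 held 127 UMIs of Ccl22, 81 of Il12b, 53 of Ccr7 and 10 of Fscn1, genes of mature migratory dendritic cells, and lacked a Ptprc UMI. It held 97.7% of the Ccl22 UMIs of the leukocytes. Against the other leukocytes 58 genes (0.357%) were higher in this class.

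Most cells without a single class were deep, at 25490 UMIs or more. A cell of 48827 UMIs in library 1 held 9 B cell and 3 T cell markers. In library 2 a cell of 26605 UMIs held 12 T cell and 3 B cell markers with 50 UMIs of the costimulatory receptor Icos, 19 of the helper cytokine Il21 and 18 of Cd4. The third, of 65359 UMIs, held 12 B cell and 10 T cell markers with 2014 UMIs of Mfge8, 692 of Cxcl13 and 62 of Madcam1. Mfge8 and Cxcl13 are known from the follicular stromal cells of lymphoid tissue, and this cell held every Cxcl13 UMI of the leukocytes. Of the unnamed cells with Ptprc, one in library 1 held 121 UMIs of Ptprc, 183 of the chemokine Ccl5, 54 of the interferon-induced Rsad2 and 26 of Ccr7. It held 70.7% of the Ccl5 UMIs of all leukocytes.

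Homing and signalling genes followed the lineages. Of 18 chemokine receptor and adhesion genes compared, 15 were higher in leukocytes, against 4.13% of all genes compared. Cxcr4, the receptor for CXCL12, stood at 271 and 324 CPM in B cell-like and 182 and 178 in T cell-like cells. Ccr2, a receptor of monocytes, stood at 241 and 634 CPM in macrophage-like cells and was found in 2 of 7 and 8 of 12 of them. Ccr6 was at 169 and 241 CPM in B cell-like cells and at most 20.7 in the other classes. Among 16 genes of antigen receptor signalling, 12 were higher in leukocytes, against the same 4.13%. Syk, the kinase of the B cell receptor, stood at 357 and 432 CPM in B cell-like and 0 and 31.5 in T cell-like cells, and Lck, a kinase of the T cell receptor, at 26.3 and 58.2 against 499 and 446.

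Lineage transcription factors were higher for 19 of 23 genes compared. Irf8, which B cells and the Xcr1 dendritic subset both need, stood at 549 and 773 CPM in B cell-like cells and at 2542 and 785 in dendritic cell-like cells. It was not particular to them, being found in 28 B cell-like, 19 macrophage-like, 6 T cell-like and 5 dendritic cell-like cells. Spi1, the myeloid and B cell factor PU.1, stood at 253 and 215 CPM in macrophage-like cells and at 0 and 5.24 in T cell-like cells. Bcl11b, which holds T cell identity, stood at 547 and 540.0 CPM in T cell-like cells and at 0 in the other 3 main classes. Cytokine receptors were higher for 14 of 19 and interferon response genes for 8 of 15, and pattern recognition receptors for 3 of 12, against 4.13% of all genes compared. The interferon list summed to 1933 and 1556 CPM in leukocytes and 182 and 224 in the other cells.

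Proliferating cells were more frequent among leukocytes than in the rest of the preparation. At least 5 of 10 proliferation genes were detected in 11 of 44 leukocytes of library 1 and 6 of 42 of library 2, against 4 of 691 (0.579%) and 6 of 706 (0.85%) other cells. Thinning every cell to 4000 UMIs, with at least 3 genes required, gave 9 of 44 and 6 of 42 against 5 of 691 and 7 of 706. They lay among B cell-like (7 of 28), T cell-like (4 of 19) and dendritic cell-like cells (1 of 9) and those with B and T cell markers (2 of 3), and none of the 19 macrophage-like cells reached the count. The epithelial-marked cells of library 1 were both among them, as was 1 unnamed cell of library 2 with 32 Ptprc UMIs and 12340 UMIs in all. In library 1 the proliferating leukocytes had a median of 21887 UMIs against 9992 for the rest, and in library 2 of 32337.5 against 10896.5, and the part of depth in these counts beyond the thinning was not tested. Of the 10 genes 9 were higher in leukocytes, against 4.13% of all genes compared. Mki67 stood at 672 and 462 CPM against 11.7 and 7.13, a log2 ratio of 4.88 ± 0.14.

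Endocrine genes were among those lower in leukocytes. All 12 genes of the endocrine list were lower, with a median log2 ratio of -6.12, against 2.49% of all genes compared. The rule on hormones fixes this in part. Outside the list Meg3, a long noncoding RNA of endocrine cells, stood at 46.2 and 51.3 CPM in leukocytes against 4889 and 5114, a log2 ratio of -6.42 ± 0.04. Pcsk2 and Cpe, enzymes that process prohormones, followed at -6.26 ± 0.04 and -6.11 ± 0.17. Of the ductal list 1 of 10 genes was lower, and 4 without the epithelial-marked cells. Of the 6 endothelial genes of the rule 4 were lower (Plvap, Flt1, Kdr and Esm1), which the rule also fixes in part. No gene compared of the acinar (3), stromal (8), erythroid (5) or glial (2) lists was higher or lower. Of these genes only Cela1 (acinar) and Rgs5 (stromal) reached 30 CPM in the other cells of both libraries. The rest could not be called lower in both libraries, so the absence of that call says nothing about them.

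At equal depth the median number of genes per cell was higher in leukocytes than in the other cells. Thinned to 4000 UMIs, a leukocyte held a median of 2028.5 genes in library 1 and 1992 in library 2, 2010 ± 25.8 (SD, n = 2), and another cell 1813 and 1785, 1799 ± 19.8. The 2 library medians of leukocytes lay above those of the other cells, while single cells overlapped over most of their range, from 849 to 2347 genes in leukocytes and from 714 to 2398 in other cells. The rule bears on this measure, since the 12 endocrine genes took 326645 and 323545 CPM in the other cells and 4754 and 4043 in the leukocytes, and their part in the result was not tested. With 2 libraries on each side the smallest p of an exact permutation test is 0.333. Without thinning the order was the reverse, 3382.5 and 3621 genes against 4598 and 4724. Within the leukocytes the thinned median was 2040.0 ± 38.9 in B cell-like, 2047 ± 2.83 in T cell-like, 1914 ± 4.95 in macrophage-like and 1905 ± 32.5 in dendritic cell-like cells.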

How the data were processed

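For each library the authors deposited a table of whole-number counts, the deduplicated transcripts (UMIs) of each gene in each cell barcode. According to the methods, their Cytonaut software kept barcodes above a depth threshold found with UMI-tools, aligned reads to exons and assigned them to Ensembl genes on GRCm38, so intronic reads are absent from the counts. Library 1 listed 30135 genes and library 2 listed 30632, 33038 in either, and a gene listed once was set to 0 in the other. GENCODE M21 on GRCm38 held 32971 of these identifiers (99.8%) and gave the coordinates. Promoters came from RefSeq on GRCm38.p6.

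Counts were analysed in Python 3.11.15 with numpy 2.4.6, scipy 1.17.1, pandas 2.3.3, scanpy 1.11.5 and matplotlib 3.10.9. Every cell of the tables was kept and doublets were marked with Scrublet per library, not removed. UMIs were summed over the cells of a class and library and scaled to CPM. The log2 ratio was taken per library with 10 CPM added, over genes with at least 50 UMIs in all cells. No test was run, because the rule chose the cells from the same counts, the labels give 1 group, and cells are not replicates. Called means 4-fold or more in the same direction in both libraries. Adding 10 CPM shrinks the ratios of low genes. The ratios were tested on simulated sums drawn without differences between single cells. This does not show how they behave where a single cell supplies most UMIs of a gene.

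The cells, the gene lists and the rule for named genes were chosen with earlier results of these data known. Named genes were those of the rule and lists, and outside these the 20 genes with the highest lower ratio of both libraries among those found in at least 10 leukocytes of each, the 10 most lowered at 100 CPM or more in other cells, and for each class of at least 5 cells per library the 10 highest found in 25% of its cells. From each group some are named here. Genes and single cells named after their values were seen are Dmbt1, Pigr, Mfge8, Cxcl13, Madcam1, Icos, Il21, Il12b, Slpi, Xbp1 and the genes compared between B cell-like cells with and without Ighd. Genes with near-identical copies, such as Ighg2b and Ighg2c, are uncertain. Alternatives included other rule thresholds, thinning, added CPM of 1 and 50, TMM scaling with edgeR 4.0.16 in R 4.3.3, another reference and leaving out each library. Results for some genes are not reported here.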

Additional observations from a re-analysis of the deposited data

How the results depend on the processing

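The share of leukocytes, 5.80% as reported, was 5.46% with a leukocyte sum of at least 10, 5.33% with at least 20, 6.40% without the endothelial condition, 5.39% with cells thinned to 4000 UMIs and 5.53% without the 4 epithelial-marked cells, a choice made after seeing the data. Leaving out each library gave 5.61% to 5.99%, and 1992 to 2028.5 genes per cell at equal depth. The dendritic cell-like share, 10.4% as reported, was 8.12% with at least 4 markers, 8.17% with 2 UMIs per marker and 6.98% in thinned cells. With 1 CPM added 1208 genes were higher and 1627 lower, with 50 CPM 146 and 88, after TMM scaling 446 and 624, and against other cells below the hormone limit 366 were higher. With 1 library left out and a call resting on the other alone, 878 to 893 genes were higher and 488 to 618 lower in leukocytes, and 144 to 168 were higher in B cell-like, 209 to 244 in T cell-like, 342 to 479 in macrophage-like and 220 to 308 in dendritic cell-like cells. Genes per cell were 3502 without thinning and 1258 at 2000 UMIs, as fewer or more UMIs per cell give by construction. Of 405 log2 ratios of 45 single genes under the alternatives, 396 kept their direction and 9 did not: B2m (-0.018) and Fos (-0.63) and Jun (-0.80) against other cells below the hormone limit, Fos (-0.56) and Jun (-0.61) after TMM scaling, Fos (-0.24), Jun (-0.37) and Tff2 (-0.23) without library 2 (0.44, 0.46 and 9.84 without library 1), and Jun (-0.12) without the 4 epithelial-marked cells. The cause of the other changes was not tested. No paired analysis was possible because the labels give 1 group. The classes other than B cell-like rest on 0 to 12 cells per library, which limits every share among them.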

Other observations

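Ighm transcripts were also found in T cell-like, macrophage-like and dendritic cell-like cells, with few Igkc transcripts beside them. In T cell-like cells 16 of 19 held an Ighm UMI (84.2%, exact Clopper-Pearson 95% interval 60.4 to 96.6), with a median of 3 and at most 40 UMIs, at a median depth of 9549 UMIs. Macrophage-like cells held one in 16 of 19, with a median of 5 and at most 22, at a median depth of 11387, and dendritic cell-like cells in 4 of 9. Among the cells outside the rule 99 of 1397 (7.09%, 5.80 to 8.56) held one, at a median depth of 18595. In summed UMIs, Ighm and Igkc stood at 4197 and 5664 in B cell-like cells, at 110 and 1 in T cell-like cells and at 108 and 4 in macrophage-like cells. They stood at 447 and 702 in the cells outside the rule, which include cells with leukocyte markers. Of these, 1 cell of library 1 with 12 B cell markers and 12.9% insulin held 222 and 252. The cells outside the rule with every hormone below 1% held 29 and 25. The 2 genes thus differed in proportion between B cell-like cells and the other leukocyte classes, in both libraries, and the plasma cell-like cells held 8392 Igkc UMIs and no Ighm. These genes were chosen after their values were seen. Ighm lies at chr12:113418558-113422730 on the minus strand, Igkc at chr6:70726435-70726966 on the plus strand.

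A T cell-like cell of library 2 held 7 dendritic cell markers beside its T cell markers, with 48 UMIs of Ccr7 and 25 of Fscn1 in 12058 UMIs, and 10 UMIs of Cd8a.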
